A study of Mus musculus with 7 samples.

Results

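Mitochondrial ribosomal protein genes were examined in D3 mouse embryonic stem cells with and without calreticulin, the calcium-binding chaperone of the endoplasmic reticulum encoded by Calr. The genes were chosen by name, as all probe sets whose only gene symbol on the platform was Mrpl or Mrps followed by a number. This gave 156 of the 45101 probe sets on the array, which stood for 76 genes, 47 with an Mrpl symbol (104 probe sets) and 29 with an Mrps symbol (52 probe sets). A further 4 probe sets that carried such a symbol together with a second gene were left out. The series holds 7 libraries, 2 of wild type D3 cells and 5 of D3 cells with a knockout of calreticulin, each hybridised to its own Affymetrix mouse expression array. The D3 line was derived from mouse blastocysts and is widely used. Each library held total RNA pooled from several cultures, and its submitters numbered it as a replicate of its own. Whether 1 or several knockout clones were used is not stated in the labels, so the tests below measure the spread between these libraries.

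Mitochondria have their own ribosome, which translates the few messenger RNAs of the mitochondrial genome, all for subunits of the respiratory chain and ATP synthase. Its proteins are encoded in the nucleus, made in the cytosol and imported. The large subunit, most of whose genes carry Mrpl symbols, forms peptide bonds and leads the new chain to the inner membrane; the small subunit, most of whose genes carry Mrps symbols, binds the messenger RNA and decodes it. Many of these proteins have a counterpart in bacterial ribosomes, and the others were gained in mitochondria. Embryonic stem cells in culture draw much of their energy from glycolysis and have mitochondria of simple structure.

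Of the 7 libraries, knockout libraries 2 and 3 stood apart. Across tested probe sets, which do not count as replicates, their Pearson correlation was 0.985 with each other and 0.843 to 0.902 with the other 5, while those 5 gave 0.920 to 0.972 among themselves. For Actb, the signal near the 3' end exceeded that near the 5' end by 0.79 and 0.89 (log2) in these libraries, against 1.46 to 2.08 in the rest. This ratio shows how far along the transcript labelling reached. For Gapdh it was -0.31 and -0.27 in these libraries, close to -0.17 in knockout library 1. The Gapdh ratio was highest in knockout library 4 (1.32) and wild type library 2 (0.77). Lys, a bacterial poly-A RNA used as a labelling control, reached 15160 and 13150 at its 3' probe set in knockout libraries 2 and 3. It stood at 6749 to 8508 in the other libraries. For the group and for many of the genes below, the difference in knockout libraries 1, 4 and 5 alone is also given. The Calr transcript followed the labels, with signals of 12460 and 10840 in the wild type libraries and 577 to 1064 in the 5 knockout libraries (log2 difference -3.68, SE 0.30, limma adjusted p = 0.00595), which passed the threshold in each fit without 1 knockout library but not in the fits with a single wild type library (adjusted p = 0.254 and 0.129). All 8 embryonic stem cell markers were measured in every library, and their summed signal was 79930 and 89070 in wild type libraries, 70340 and 74940 in knockout libraries 2 and 3, the lowest of the 7, and 78390 to 104700 in the other knockout libraries. Pou5f1, a core pluripotency factor named for its values, stood at 4891 and 4687 in knockout libraries 2 and 3, against 8770 to 11726 in the other 5 libraries. Not all 8 markers followed it. Both of these libraries lay below all the other 5 for 4 of the 8, where this held for 26% of all tested genes. They lay above all the other 5 for 1, Tdgf1 (14287 and 15929 against 10428 to 11867), where this held for 24.6%.

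The mitochondrial ribosomal protein genes as a group lay lower in the knockout libraries, although no single gene passed the threshold. All 76 genes had a probe set above the filter on low signal, and each gene was described by its probe set with the highest mean signal. The difference between knockout and wild type was negative for 68 of the 76 genes, where 50.3% of the 13120 tested genes were negative. The median difference was -0.43 on the log2 scale (quartiles -0.63 and -0.18), against 0.00 for all tested genes (quartiles -0.31 and 0.33). It was -0.46 for the 47 Mrpl genes and -0.41 for the 29 Mrps genes. The widest differences were those of Mrpl12 (-1.33), Mrps34 (-1.17), Mrpl45 (-1.03) and Mrpl22 (-1.02), and the mean knockout signal was 39.9%, 54.7% and 55.9% of wild type for Mrpl12, Mrpl45 and Mrpl22.

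**Figure D1:**
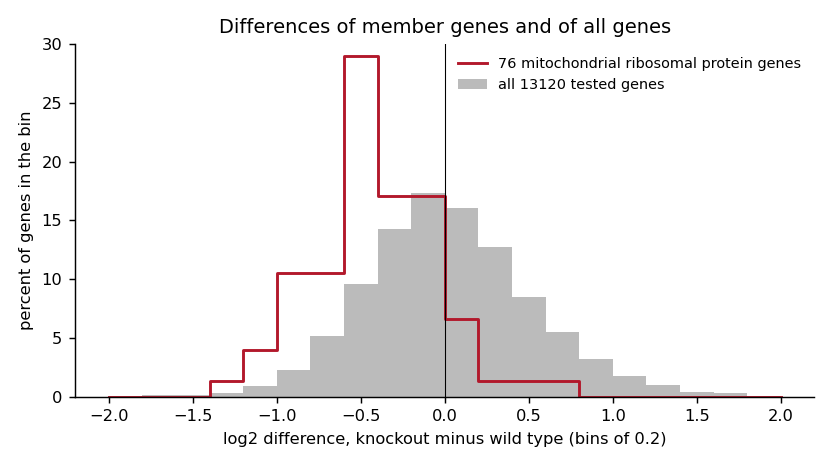
Share of genes (percent, vertical axis) by log2 difference between knockout and wild type libraries (horizontal axis, bins of 0.2), with all 13120 tested genes as grey bars and the 76 mitochondrial ribosomal protein genes as a red line. The red line lies to the left of the grey bars, with medians of -0.43 and 0.00.

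Tested gene by gene with limma over all 27022 tested probe sets, 0 of the 76 genes passed an adjusted p of 0.05, where 0.0229% of all tested genes passed. The lowest adjusted p of a member was 0.575, shared by Mrps34 and other genes. At an unadjusted p under 0.05, 10 of the 76 genes were lower and 0 were higher, where 3.22% of all tested genes were lower and 4.38% higher at that limit. The 10 genes were Mrps34, Mrpl28, Mrpl12, Mrpl40, Mrpl17, Mrps23, Mrpl10, Mrpl27, Mrps7 and Mrpl20, of which Mrpl17, Mrps23, Mrps7 and Mrpl20 are outside the rule for named genes and were chosen after their values were seen. Counted over probe sets, 12 of the 141 tested member probe sets were at that limit, all 12 lower, where 2.61% of all tested probe sets were lower and 5.81% higher. The groups did not overlap for 23 of the 76 genes, with all 5 knockout libraries below both wild type libraries, where this held for 7.44% of all tested genes. The opposite order was found for 0 of the 76 genes, where it held for 6.41%.

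In each library the level of the group was taken as the median over the 76 genes of the log2 value minus the wild type mean. It was 0.15 and -0.15 in wild type libraries 1 and 2, and -0.31, -0.58, -0.76, -0.14 and -0.32 in knockout libraries 1 to 5. Knockout library 4 thus lay within the wild type values and the other 4 knockout libraries lay below them, with knockout libraries 2 and 3 lowest. The median of all tested genes moved between -0.05 and 0.05 over the 7 libraries. After quantile normalization, which gives every array the same distribution of signals, the group stood at 0.15 and -0.15 in wild type and at -0.24, -0.58, -0.80, -0.11 and -0.33 in knockout libraries 1 to 5, and the median of all tested genes lay between -0.18 and 0.03.

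**Figure D2:**
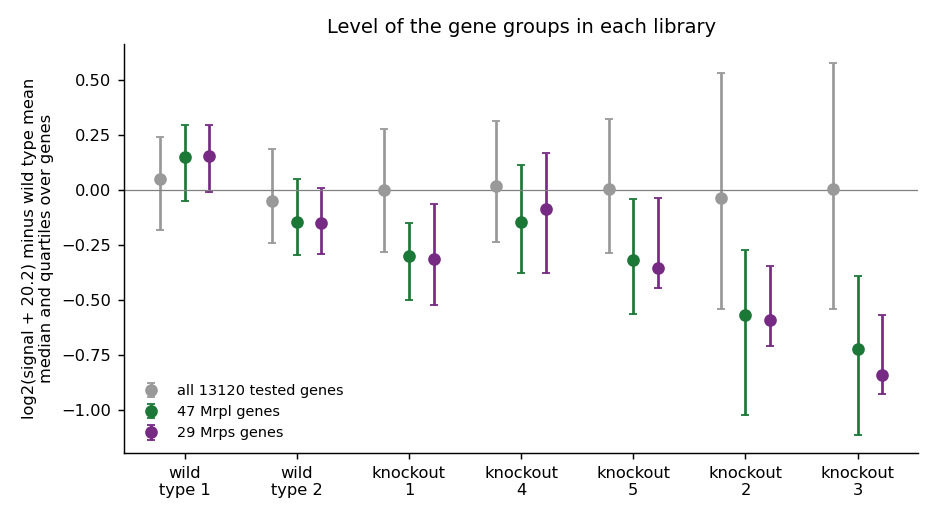
Median and quartiles over genes (points and bars) of the log2 value minus the wild type mean (vertical axis) in each of the 7 libraries (horizontal axis), for all 13120 tested genes in grey, the 47 Mrpl genes in green and the 29 Mrps genes in purple. Both subunits are lowest in knockout libraries 2 and 3, at -0.57 and -0.72 for Mrpl and -0.59 and -0.85 for Mrps genes, while all tested genes keep a median near 0.

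Without knockout libraries 2 and 3 the shift was smaller. In knockout libraries 1, 4 and 5 the median of the 76 genes stood at -0.24 relative to the wild type mean, with 61 of 76 genes negative, where 51.1% of all tested genes were negative in the same fit, and 6 of 76 were at an unadjusted p under 0.05, all lower, where 2.48% of all tested genes were lower at that limit. The median was -0.26 for Mrpl and -0.18 for Mrps genes. All 3 of these libraries lay below both wild type libraries for 25 of 76 genes, where this held for 10.8% of all tested genes, and above both for 1 gene, Mrps21, where this held for 10.4%; that gene was named after its values were seen. In knockout libraries 2 and 3 the median was -0.69 and 70 of 76 genes were negative. Both of these libraries lay below all the other 5 for 48 of 76 genes, where this held for 26% of all tested genes, and above all the other 5 for 0 of 76, where it held for 24.6%. Fibroblast markers moved with the same libraries. The summed signal of 10 markers was 4906 and 4616 in knockout libraries 2 and 3, against 1595 and 1272 in wild type, and 682 to 1141 in the other knockout libraries. For 8 of the 9 tested markers both libraries lay above all the other 5. In knockout libraries 1, 4 and 5 all 9 tested markers were negative, with a median of -0.68. None of the 10 was listed at 0, and Lum, the marker under the filter, had signals of 33.2 to 72.4 in all 7 libraries. Over the 5 knockout libraries together, all 4 tested markers of primitive and visceral endoderm were negative (median -0.69). The groups did not overlap for 1 of them, Sox17 at -1.20 (named for its values), where 7.44% of all tested genes were lower without overlap. In knockout library 5 the median of the 4 stood at 0.03, with 2 below the wild type mean. Ttr and Afp were under the filter, with mean signals of 19.1 and 9.26 in knockout and 8.85 and 6.3 in wild type. The summed signal of all 6 endoderm markers was 1259 and 2100 in wild type libraries, 725 and 641 in knockout libraries 2 and 3 and 835 to 1560 in the other knockout libraries. The part of these marker levels, of the stem cell markers, of the Actb and Gapdh ratios and of the poly-A control in the lower signals was not tested. Fewer cells that express a gene and less of its RNA per cell cannot be told apart in RNA from whole cultures.

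**Figure D3:**
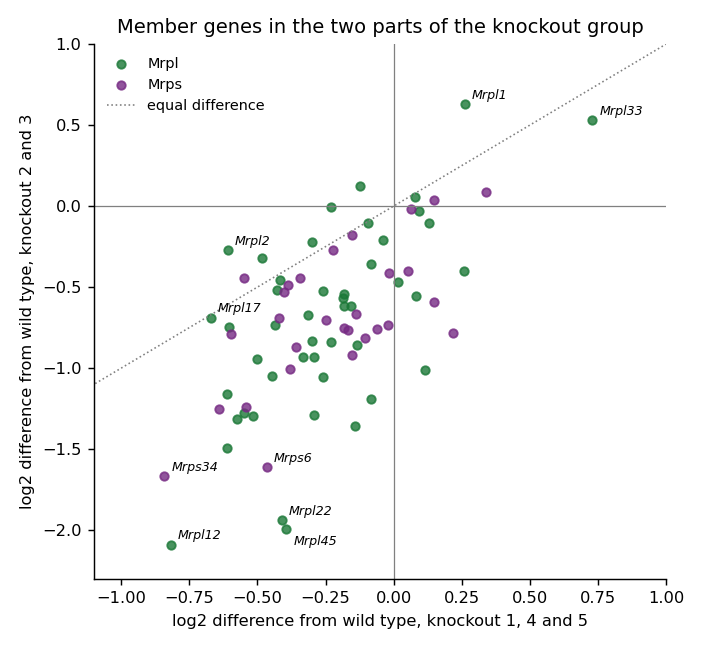
Log2 difference from the wild type mean of each of the 76 genes in knockout libraries 1, 4 and 5 (horizontal axis) and in knockout libraries 2 and 3 (vertical axis), Mrpl genes in green and Mrps genes in purple; the dotted line marks equal differences and both axes share the wild type libraries. Most points lie below the dotted line and left of 0, with medians of -0.24 and -0.69, and Mrpl12 lies lowest.

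The sequence before the start of the genes was looked at because members moved together. RefSeq promoters of the build GRCm38.p6 (250 bases before to 50 bases after the start) were found for 67 of the 76 genes, 73 promoters in all. The letters CCGGAA, the core of sites for ETS factors such as GABP, stood on either strand in promoters of 38 of the 67 genes (56.7%). They stood in 29.1% of 10569 tested genes and 16.7% of all 27025 genes with a promoter. GCGCA, any base and then GCGC, a site for the respiratory factor NRF1, stood in 12 of 67 (17.9%), against 10.8% of tested genes and 5.19% of all genes. AAGATGGCG, a site for YY1, stood in 8 of 67 (11.9%), against 3.28% and 1.64%. The E box CACGTG, bound by Myc family dimers, stood in 5 of 67 (7.46%), against 11.5% and 8.09%. None of the 4 words contains another. The shares are a description with no test, and the median difference was -0.43 for the 38 genes with CCGGAA and -0.42 for the 29 without, and -0.30 for the 12 genes with the NRF1 word and -0.43 for the 55 without it. The 120 bases before the start are shown for 5 genes with wide negative differences that have such a word there, and for Mrpl33, which had the widest positive difference. They are from RefSeq (GRCm38.p6), written along the strand of the gene, with matches to the words in capitals.
Mrpl12, chr11:120484517-120484636, plus strand: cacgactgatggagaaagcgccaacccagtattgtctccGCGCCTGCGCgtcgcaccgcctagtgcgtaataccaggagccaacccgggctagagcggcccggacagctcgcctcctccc
Mrpl10, chr11:97041462-97041581, plus strand: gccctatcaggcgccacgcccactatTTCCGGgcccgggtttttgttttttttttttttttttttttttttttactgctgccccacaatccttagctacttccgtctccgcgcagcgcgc
Mrpl45, chr11:97315596-97315715, plus strand: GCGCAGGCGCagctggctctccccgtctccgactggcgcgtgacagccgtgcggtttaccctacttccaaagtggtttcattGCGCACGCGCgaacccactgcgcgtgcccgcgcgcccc
Mrpl22, chr11:58171544-58171663, plus strand: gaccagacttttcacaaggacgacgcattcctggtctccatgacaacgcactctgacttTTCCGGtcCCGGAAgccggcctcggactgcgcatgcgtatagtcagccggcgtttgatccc
Mrpl27, chr11:94653671-94653790, plus strand: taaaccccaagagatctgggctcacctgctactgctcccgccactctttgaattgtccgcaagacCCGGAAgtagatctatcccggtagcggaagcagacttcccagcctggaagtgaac
Mrpl33, chr5:31613831-31613950, plus strand: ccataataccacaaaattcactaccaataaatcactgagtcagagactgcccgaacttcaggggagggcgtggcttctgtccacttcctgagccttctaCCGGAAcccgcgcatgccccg
Mrpl12 and Mrpl45 show the NRF1 word, the latter at 2 places, and Mrpl10, Mrpl22 and Mrpl27 show the ETS core, which also stands close to the start of Mrpl33. The same word thus stood before genes with negative and with positive differences.

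Among large subunit genes, Mrpl12 and Mrpl10 encode the stalk that receives translation factors, with Mrpl10 as the base on which copies of Mrpl12 sit. Mrpl12 had signals of 8751 and 3787 in wild type libraries and 3051, 1401, 1279, 3802 and 2977 in knockout libraries 1 to 5, a difference of -1.33 (SE 0.50, limma adjusted p = 0.575). Wild type library 1 was high and knockout library 4 lay just above wild type library 2, so the groups overlapped, and the difference was -0.72 without wild type library 1 and -0.82 in knockout libraries 1, 4 and 5. Mrpl10 had 4578 and 2612 in wild type and 2445, 1246, 1184, 2422 and 1941 in knockout libraries (-0.96, SE 0.39, adjusted p = 0.575). All 5 knockout libraries were below both wild type libraries, with knockout libraries 1 and 4 close to wild type library 2. The Mrpl10 difference was -0.56 without wild type library 1 and -0.61 in knockout libraries 1, 4 and 5. Mrpl11, which binds beside the stalk base, had 5236 and 4788 in wild type and 3330, 1950, 2119, 4982 and 4106 in knockout libraries (-0.69, and -0.29 in knockout libraries 1, 4 and 5). Its groups overlapped, with knockout library 4 between the wild type libraries and knockout libraries 2 and 3 lowest.

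Mrpl22 and Mrpl45 lie where the new peptide leaves the ribosome, and Mrpl45, which has no bacterial counterpart, contacts the inner membrane. Mrpl22 had signals of 6879 and 6616 in wild type and 4863, 1859, 1642, 6115 and 4372 in knockout libraries (-1.02, SE 0.51, limma adjusted p = 0.575). Mrpl45 had 4803 and 3399 in wild type and 3216, 1019, 984, 3070 and 2926 in knockout libraries (-1.03, SE 0.53, adjusted p = 0.575). For both genes all knockout libraries were below the wild type libraries, and knockout libraries 2 and 3 were far below the rest: without them the difference was -0.41 for Mrpl22 and -0.39 for Mrpl45. Mrpl17, another protein at the exit, had 5485 and 3520 in wild type and 3097, 2954, 2502, 2518 and 2674 in knockout libraries (-0.68). Here all knockout libraries were below the wild type libraries and knockout libraries 2 and 3 were not apart from the others, with differences of -0.69 in them and -0.67 in knockout libraries 1, 4 and 5. The other 2 tested probe sets of Mrpl17 were dimmer, with signals of 53.7 to 159, and differed by 0.12 and 0.28, so the direction for Mrpl17 rests on its brightest probe set.

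Mrpl27 and Mrpl28 are counterparts of bacterial large subunit proteins, and Mrpl27 reaches towards the site of peptide bond formation. Mrpl27 had signals of 4876 and 3642 in wild type and 2771, 1799, 1610, 3365 and 2731 in knockout libraries (-0.83, SE 0.34, limma adjusted p = 0.575). Mrpl28 had 5516 and 3517 in wild type and 2746, 2161, 1782, 3324 and 2611 in knockout libraries (-0.83, SE 0.31, adjusted p = 0.575). Mrpl40, a mitochondria-specific protein, had 3017 and 2619 in wild type and 1988, 1274, 980, 1867 and 1791 in knockout libraries (-0.87, SE 0.33, adjusted p = 0.575). In all 3 genes the knockout libraries were below both wild type libraries, and in Mrpl40 none came close to them. The difference in knockout libraries 1, 4 and 5 was -0.52 for Mrpl27, -0.61 for Mrpl28 and -0.58 for Mrpl40. For Mrpl28 it was -0.51 without wild type library 1, and its other 2 tested probe sets differed by -0.22 and -0.63, both with overlap. Mrpl20, a protein that joins early in assembly in bacteria, had 4455 and 3340 in wild type and 2713, 1735, 1990, 2996 and 2764 in knockout libraries (-0.69, and -0.45 in knockout libraries 1, 4 and 5), again without overlap.

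Other large subunit genes were lower mainly in knockout libraries 2 and 3. Mrpl18, the counterpart of a bacterial protein that binds 5S ribosomal RNA, had signals of 3308 and 3908 in wild type and 3211, 1447, 1335, 2856 and 3767 in knockout libraries (-0.63, and -0.14 in knockout libraries 1, 4 and 5). Mrpl51, a mitochondria-specific protein, had 8256 and 7821 in wild type and 6645, 4212, 3527, 7059 and 6429 in knockout libraries (-0.58), and Mrpl15 had 9963 and 7966 in wild type and 7163, 4898, 4431, 8074 and 6655 (-0.55). Mrpl51 showed no overlap, and in Mrpl15 knockout library 4 reached into the wild type range. In knockout libraries 1, 4 and 5 the difference was -0.26 for Mrpl51 and -0.29 for Mrpl15. Mrpl42 had 4377 and 5042 in wild type and 5152, 3436, 3353, 4526 and 4597 in knockout libraries (-0.18), where knockout libraries 2 and 3 alone lay below wild type.

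**Figure D4:**
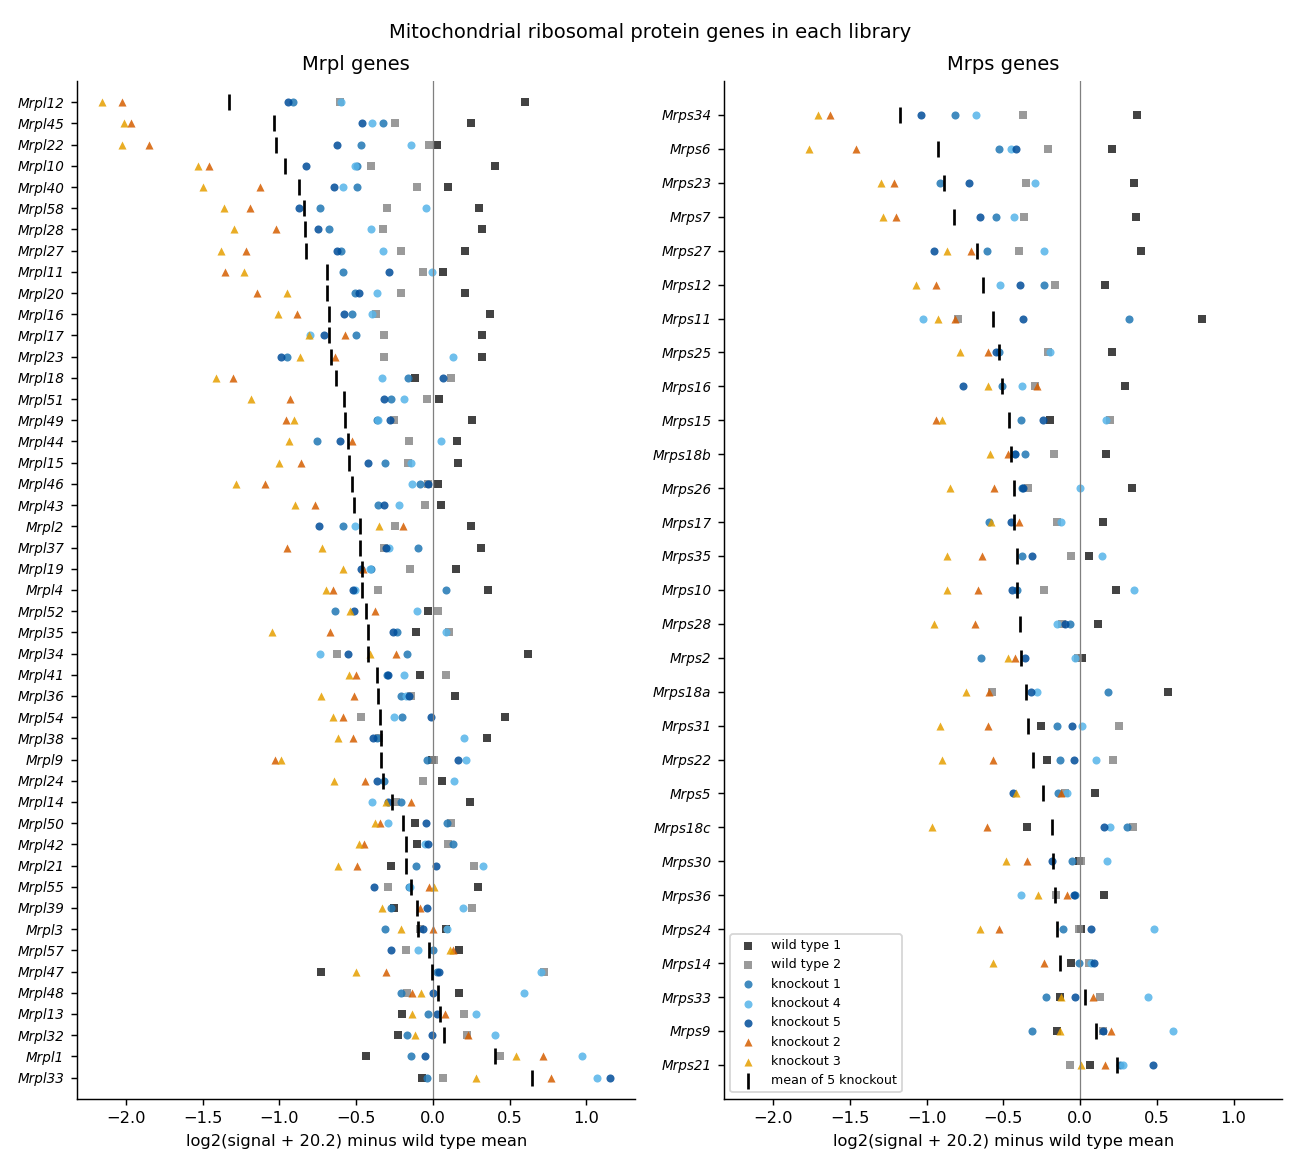
Log2(signal + 20.2) minus the wild type mean (horizontal axis) of each Mrpl gene (left) and Mrps gene (right) in each library, with squares for wild type, circles for knockout libraries 1, 4 and 5, triangles for knockout libraries 2 and 3 and a bar for the mean of the 5 knockout libraries; genes are sorted by that mean. The bar lies left of 0 for 68 of the 76 genes, and the triangles are the leftmost points of most rows.

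The 3 genes with the least spread over the 7 libraries were the large subunit genes Mrpl3, Mrpl57 and Mrpl13. Mrpl3, a protein next to the catalytic centre, had signals of 3015 and 2679 in wild type and 2282, 2848, 2459, 3036 and 2721 in knockout libraries (-0.10), and Mrpl57 had 3953 and 3105 in wild type and 3507, 3842, 3783, 3271 and 2902 (-0.02). Mrpl13 had 2855 and 3793 in wild type and 3224, 3471, 2993, 4001 and 3352 in knockout libraries (0.043, and -0.075 with arrays centred on their medians). Their groups overlapped, and knockout libraries 2 and 3 were not apart from the rest. Mrpl39 had 4554 and 6474 in wild type and 4485, 5132, 4303, 6230 and 5288 in knockout libraries with its brighter probe set (-0.11, and 0.017 after quantile normalization). Its other tested probe set had 3194 and 3386 in wild type and 1826 to 3001 in knockout libraries, without overlap. That probe set differed by -0.43, and by -0.25 in knockout libraries 1, 4 and 5, so the size of the Mrpl39 difference depends on the probe set. The widest positive difference was that of Mrpl33, a small protein with a bacterial counterpart, named for that value. It had signals of 1093 and 1204 in wild type and 1116, 1975, 1401, 2435 and 2577 in knockout libraries (0.65, SE 0.36, limma adjusted p = 0.577). Knockout library 1 lay between the wild type libraries and the other 4 above them.

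**Figure D5:**
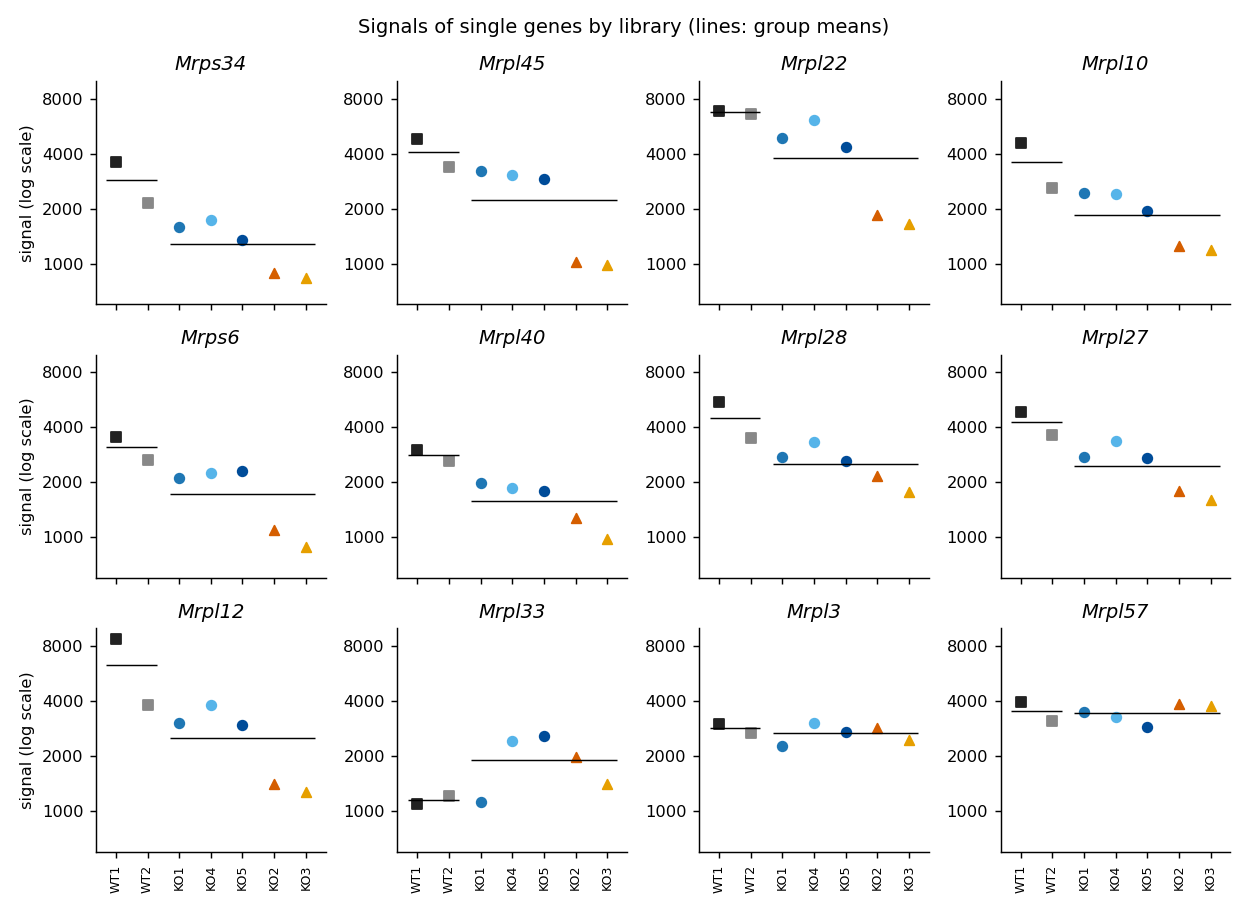
Signals (log axis) of 12 genes in each library, with squares for wild type (WT), circles for knockout (KO) libraries 1, 4 and 5, triangles for knockout libraries 2 and 3 and lines for group means: the 8 genes with the widest negative differences among those without overlap, then Mrpl12, Mrpl33, Mrpl3 and Mrpl57. In the first 8 panels every knockout point lies below both wild type points, and in Mrpl22 and Mrpl45 the triangles lie far below the circles.

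Among small subunit genes, Mrps34 had the widest difference. It encodes a mitochondria-specific protein needed for a stable small subunit. Its signals were 3625 and 2158 in wild type and 1584, 892, 841, 1738 and 1357 in knockout libraries (-1.17, SE 0.37, limma adjusted p = 0.575), with all 5 knockout libraries below both wild type libraries. In knockout libraries 1, 4 and 5 the difference was -0.84, the most negative of the 76 genes there. Mrps6, the counterpart of a bacterial platform protein, had 3552 and 2665 in wild type and 2124, 1104, 892, 2246 and 2301 in knockout libraries (-0.92, SE 0.42, adjusted p = 0.575), and its second tested probe set differed by -0.97, each without overlap. These values were -0.47 and -0.54 in knockout libraries 1, 4 and 5. Mrps23, a mitochondria-specific protein, had 2649 and 1613 in wild type and 1087, 883, 830, 1683 and 1247 in knockout libraries (-0.89). Here knockout library 4 lay above wild type library 2, and the difference in knockout libraries 1, 4 and 5 was -0.64. The other 2 tested probe sets of Mrps23 differed by -0.49 and -0.53, both with overlap. Neither was at an unadjusted p under 0.05, so the size of the Mrps23 difference depends on the probe set. Mrps7, a protein of the small subunit head, had 2847 and 1715 in wild type and 1505, 950, 898, 1633 and 1399 in knockout libraries (-0.82, and -0.54 in knockout libraries 1, 4 and 5), without overlap. Mrps14 had 5016 and 5424 in wild type and 5202, 4433, 3509, 5473 and 5551 in knockout libraries with its brighter probe set (-0.13, and 0.052 without knockout libraries 2 and 3). Only those 2 libraries lay below wild type there. With the other tested probe set (0.23), knockout libraries 2 and 3 had 820 and 830, between wild type signals of 627 and 997. The direction for Mrps14 thus depends on the probe set. Over the 29 Mrps genes the groups did not overlap for 6 (20.7%), all lower, and for 17 of the 47 Mrpl genes (36.2%), all lower. Among all tested genes this held for 7.44% on the lower side and 6.41% on the higher side. The difference between the Mrps and Mrpl shares was not tested.

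By descent of the protein the medians were close. The 46 genes with a bacterial counterpart had a median difference of -0.43 with 40 negative, and the 28 genes counted as mitochondria-specific had -0.43 with 26 negative. Classes were assigned by symbol, and the mitochondria-specific class took all members outside the other classes, so it may hold proteins with another role. The 2 genes with an Mrps symbol whose protein sits in the large subunit, Mrps18a and Mrps30, stood at -0.35 and -0.18; both names follow from the protein classes and not from the rule for named genes.

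Genes with several probe sets gave a check within the arrays. Of the 39 genes with 2 or more tested probe sets, all tested probe sets were negative for 20 and positive for 4, and 15 had both signs. The groups did not overlap for 29 of the 141 tested member probe sets on the lower side, where this held for 5.85% of all tested probe sets, and for 1 on the higher side, where it held for 7.8%. Over the 141 tested member probe sets 109 were negative, with a median of -0.36, where 44.1% of all tested probe sets were negative and their median was 0.07. The other 15 member probe sets were under the filter, with signals of 2.7 to 131, and belonged to genes that had a brighter probe set. Disagreement was widest for Mrps11, Mrpl11, Mrpl13 and Mrpl15. Mrps11 had signals of 1333 and 429 in wild type and 952, 423, 389, 363 and 581 in knockout libraries with its brighter probe set (-0.56), and of 76.2 and 90.8 in wild type and 127, 291, 252, 112 and 114 with the other (0.84). The first overlapped between the groups and the second was higher in all 5 knockout libraries, so no direction can be given for Mrps11. The dimmest tested probe set of Mrpl11 differed by 0.67 with signals of 25.4 to 132, while its other 3 differed by -0.69 to -0.53. The dimmest of Mrpl13 differed by 1.19 with signals of 35.2 to 374, while its other 3 differed by 0.04 to 0.44. Of the 7 tested probe sets of Mrpl15, 6 differed by -0.72 to -0.07 and 1 by 0.31.

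Chromosome 11 held more members than any other chromosome, and it was singled out after the values were seen. The 11 genes there had a median difference of -0.84 (-0.52 in knockout libraries 1, 4 and 5), all 11 negative; the 3 members on chromosome 16 had a median of -0.87. Of the 10 genes at an unadjusted p under 0.05, 5 lie on chromosome 11, Mrpl12, Mrps23, Mrpl10, Mrpl27 and Mrps7, and 100 of the 1093 tested genes of that chromosome were lower at that limit. Chromosome 11 as a whole also lay lower, with a median of -0.23 over 1093 tested genes and 69.2% of them negative. In knockout libraries 1 to 5 its median over all tested genes was -0.20, -0.38, -0.34, -0.03 and -0.19, against 0.10 and -0.10 in wild type libraries, and that of its 11 members was -0.50, -1.21, -1.36, -0.29 and -0.62, against 0.30 and -0.30. The part of this chromosome-wide shift in the differences of Mrpl12, Mrpl45, Mrpl22, Mrpl10 and the other members there was not tested, and DNA copy number was not measured. The other 65 members had a median of -0.41, with 57 negative (87.7%), and 18 of them (27.7%) did not overlap between the groups, all 18 lower. Of all tested genes, those on chromosome 11 included, 50.3% were negative and 7.44% were lower without overlap. The members lie on 17 chromosomes, and their median was negative on each of them except chromosomes 15 and 5. It was 0.04 on chromosome 15, with Mrpl13 alone, and 0.11 on chromosome 5, with 2 of 4 members negative.

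Lists of other genes of mitochondrial translation had medians between -0.17 and 0.05 over the 5 knockout libraries. In knockout libraries 1, 4 and 5 alone these medians lay between -0.24 and 0.12, where that of the members was -0.24. The difference of the lists from the members was not tested. Of 5 further mitochondrial ribosomal proteins with other names 4 were measured, 2 negative and 2 positive, with 0 called (median -0.08). Chchd1, with a difference of 0.035, and Dap3, a GTP-binding small subunit protein, with -0.20, were the brightest, and Gadd45gip1, a large subunit protein named for its values, had 2535 and 1469 in wild type and 1387, 726, 642, 1224 and 1080 in knockout libraries (-0.98), without overlap. Gadd45gip1 lies on chromosome 8, as does Calr, the targeted gene, and the part of that position in its difference was not tested. Of 14 translation factors 12 were measured, 8 negative and 4 positive, with 0 called (median -0.17). Gfm1, an elongation factor, stood at -0.06 and Mtif2, an initiation factor, at 0.22. All 25 factors of ribosome assembly and rRNA modification were measured, 17 negative and 8 positive, with 0 called (median -0.14), among them C1qbp at -0.42 and Dhx30, an RNA helicase, at -0.27. In knockout libraries 1, 4 and 5 the median of these 25 genes was -0.24, with 21 negative. All 3 of these libraries lay below both wild type libraries for 28% of the 25 genes. This held for 32.9% of the members and 10.8% of all tested genes. All 9 genes of mitochondrial transcription and RNA were measured, 3 negative and 6 positive, with 0 called (median 0.05), among them Ssbp1, which binds single-stranded mitochondrial DNA, at 0.043 and Slirp, an RNA-binding partner of Lrpprc, at 0.046. Of 9 transcriptional regulators, 6 were negative and 3 positive, with 0 called (median -0.39), among them Mycn at -0.39 and Pprc1, a coactivator, at -0.57. Nrf1, Gabpa, Yy1 and Myc, whose sites were searched above, were chosen after their values were seen. Myc had signals of 1692 and 2168 in wild type and 871, 491, 444, 685 and 1024 in knockout libraries (-1.49, limma adjusted p = 0.575), with all 5 below both wild type libraries, and Yy1 had 3457 and 5825 in wild type and 2722, 1622, 1615, 2933 and 3455 (-0.92). Nrf1 had 1708 and 1559 in wild type and 1326, 567, 618, 1370 and 1234 in knockout libraries (-0.76), also without overlap. Gabpa had 948 and 2756 in wild type and 2459, 4191, 4164, 2619 and 3033 in knockout libraries (0.98), and its groups overlapped.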

How the data were processed

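Per the submitters' processing notes the values were made with MAS5 (version not given in the sources used). The deposited values are intensities, 1 linear signal per probe set and array, and the authors had scaled each array to the same level, since the mean without the lowest and highest 2% was 500 on all 7. Probe sets were named through the platform annotation, and all 76 member genes were matched to RefSeq (GRCm38.p6) by gene identifier. Signals were converted to log2(signal + 20.2), 20.2 being the 20th percentile of all values, a scale that understates differences of dim probe sets. The 27022 of 45101 probe sets with a mean above the 40th percentile were tested, without 64 control probe sets; they gave 13120 genes, each described by its probe set with the highest mean. Signals of different probe sets are not compared as RNA levels.

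The main comparison was fitted in R 4.3.3 by limma 3.58.1 (lmFit, eBayes with a trend, two-sided, Benjamini-Hochberg over all tested probe sets, threshold 0.05), with no covariate. On simulated arrays with known changes in this comparison of 27022 probe sets, log2 changes of 1, 2, 3 and 4 were called in 0%, 66%, 88% and 90% of changed probe sets, with 4 false calls. The number of arrays limits the precision.

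The members, gene lists and marker lists (stem cell, fibroblast, endoderm) were chosen with earlier results of these data known. Named genes were Calr, the 8 widest negative and 8 widest positive differences without overlap (0 of the latter existed), the 6 members with the highest mean signal, the 3 with the least spread, up to 6 with disagreeing probe sets (differences over 1 apart), up to 6 on each side in which knockout libraries 2 and 3 lay outside the rest, and up to 2 per list, called members first and otherwise the brightest. Alternatives were other normalizations, filters, pseudocounts, variance models, probe set rules, a replicate block and fits without single libraries. Figures were drawn with matplotlib 3.10.9.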

Additional observations from a re-analysis of the deposited data

How the results depend on the processing

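The negative medians kept their sign in all 21 alternatives, from -0.57 to -0.24 over all members, -0.61 to -0.26 for Mrpl and -0.53 to -0.18 for Mrps genes, and 0 members were called in each. With arrays centred on their medians the median of all tested genes moved to -0.12, with 60.3% of genes negative, and that of the members to -0.54, with 73 of 76 negative; after quantile normalization they were -0.09 and -0.40, with 57.7% of all genes and 67 members negative. The number of members at an unadjusted p under 0.05, 10 in the main analysis, was 6 with array weights, 6 without knockout libraries 2 and 3, 5 without the chromosome 11 members (an alternative chosen after seeing the data) and 0 to 17 when 1 library was left out: 0 and 14 without the first or the other wild type library, 5 and 4 without knockout library 2 or 3, and 17 without knockout library 4. The share of all tested genes at that limit moved too, from 7.6% to 4.92% with array weights, 5.72% without knockout libraries 2 and 3, and 2.34%, 14.2%, 4.65%, 4.66% and 9.73% in these fits without 1 library. In the last fit 73 members were negative, and without wild type library 1 there were 66, against 48% of all genes. With the replicate number as a block that number was 5 (6.67% of all genes) and the median -0.44; the numbers are not known to pair samples, and deviations from the group means correlated at 0.109 for replicate 1 and -0.00979 for replicate 2. The Calr difference ranged from -3.78 to -3.52 over the fits without 1 library. Single genes changed sign, all with a main difference between -0.18 and 0.043 except Mrps11 (-0.56): Mrpl13 to -0.075 (centring), Mrps14 to 0.052 and Mrpl42 to 0.016 (without knockout libraries 2 and 3, or with them as a batch term), Mrps14 to 0.048, Mrpl3 to 0.018 and Mrps11 to 0.14 (mean of the probe sets), Mrpl39 to 0.017 and Mrpl57 to 0.058 (quantile), and Mrpl57 to 0.067 (replicate block). Leaving out 1 library, Mrpl13 ranged from -0.16 to 0.25, Mrpl57 from -0.20 to 0.15, Mrps11 from -1.36 to 0.23 and Mrpl39 from -0.36 to 0.15. The cause was not tested.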
